A study of Mus musculus with 7 samples.

Results

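The genes described here carry the response of myeloid cells to colony-stimulating factors through JAK-STAT signaling. They are 3 receptor chains (Csf3r, Csf2ra and Csf2rb), the kinase gene Jak2, the transcription factor genes Stat3, Stat5a and Stat5b, the feedback inhibitor genes Socs3 and Cish, and the kinase target gene Pim1. They were chosen by name, 10 of the 19057 genes represented on the array, by a rule that uses no measured value. The cells were collected from the bone marrow of adult male C57BL/6J mice, 10 to 12 weeks old. A subcutaneous osmotic pump had delivered either 5-HT (serotonin, from a 25.8 mM solution at 1.66 ug/kg/hr) or saline for 24 h. Marrow of 3 to 4 mice was pooled for each sample, enriched on a Percoll gradient and selected with magnetic beads through CD41, the platelet glycoprotein IIb, and the labels call the selected cells megakaryocytes (MKs). There were 4 samples from 5-HT-infused mice and 3 from saline-infused mice, each hybridized to 1 Illumina BeadChip, and p-values measure the spread between these pools, not between single mice.

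Receptors for G-CSF, GM-CSF, IL-3 and IL-5 have no kinase activity of their own. Binding of the ligand brings receptor-bound JAK kinases together, mainly JAK2, which phosphorylate the receptor tails and the STAT proteins that dock there. Phosphorylated STAT dimers enter the nucleus and switch on target genes, among them inhibitors of the SOCS family that shut the receptor off again. Megakaryocytes use the same kinase and STATs, whereas the G-CSF receptor is best known from neutrophils and their precursors. Phosphorylation is the main switch of this pathway and is not seen on an expression array, which measures transcripts only.

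The values are log2 signals shifted by the authors to 1 median for all probes, 6.68 in every array. A signal near 6.68 is therefore that of the middle probe on the array. Detection p-values were not used, so such a signal does not show that the transcript was detected. The 5428 genes with a mean of at least 7.5 over the 7 arrays were tested. The arrays did not divide by infusion: clustering placed saline 1 with 5-HT 1, 3 and 4, and 5-HT 2 with saline 2 and 3. The median of the tested genes was 8.28 to 9.43 in the 5-HT arrays and 8.15 to 8.99 in the saline arrays, and 91.4% of the tested genes had a positive log2 difference (5-HT minus saline), with a median of 0.42. By limma, 0% of the tested genes were higher and 0% were lower in 5-HT at an adjusted p under 0.05 (0 of 5428 genes each, smallest adjusted p = 0.563), while 311 genes (5.73%) had an unadjusted p under 0.05. Of the megakaryocyte and platelet markers, 10 of the 12 on the array reached the limit for testing, and Itga2b, which encodes CD41, ranged over 9.36 to 12.29 in the 5-HT arrays and 8.86 to 12.15 in the saline arrays. Transcripts of other marrow cells were present too: all 13 neutrophil markers on the array reached the limit, with a mean over the list of 13.32 to 13.86 in the 5-HT arrays and 13.10 to 13.18 in the saline arrays. The mean of the monocyte and macrophage list was 7.31 to 9.07 in the 5-HT arrays and 7.46 to 9.20 in the saline arrays, and 3 of its 6 genes reached the limit. The eosinophil list, with 3 of 7 genes over the limit and Epx, Siglecf, Ccr3 and Il5ra under it, had a mean of 7.45 to 9.16 in the 5-HT arrays and 7.05 to 7.35 in the saline arrays. In bulk samples of this kind, fewer cells of a type and less RNA per cell cannot be told apart.

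None of the members passed the test. Of the 10 genes, 8 reached the limit, 0 of these 8 had an adjusted p under 0.05 by limma, 0 had an unadjusted p under 0.05, and 0 had groups that did not overlap, against 6.41% of the tested genes whose groups did not overlap (6.28% higher in 5-HT and 0.129% lower). The difference was above 0 for 6 of the 8, and 2 of the 8 (Csf2ra and Cish) lay above the median of all tested genes. The median difference of the 8 was 0.25, below the 0.42 of all tested genes. Pim1 (mean 6.93) and Stat5b (mean 6.59) stayed under the limit and were fitted only without it, where neither had an unadjusted p under 0.05 by limma, against 5.36% of all 19057 genes, and Cish (mean 7.51) and Stat5a (mean 7.54) lay just above it.

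**Figure D1:**
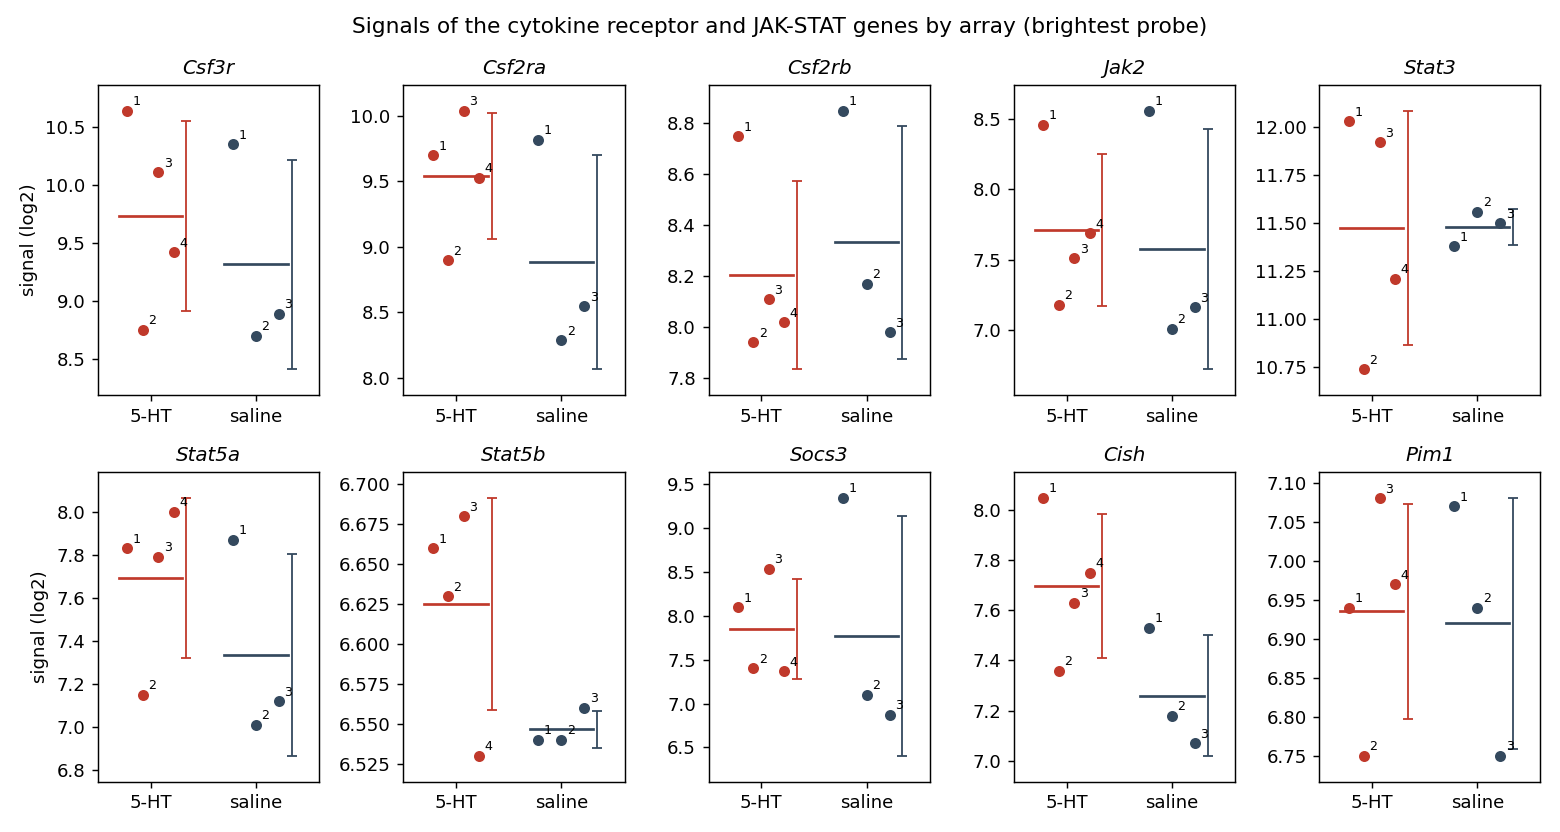
Log2 signal of each of the 10 genes in every array, with 5-HT left and saline right in each panel; points are arrays with their replicate number, horizontal bars are group means, vertical bars are SDs, and each panel has its own axis. In every panel the 2 groups overlap, and for 6 of the 8 tested genes the highest point is 5-HT 1 or saline 1.

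Csf3r encodes the receptor for G-CSF, the main growth factor of neutrophils. Its signal was 10.64, 8.75, 10.11 and 9.42 in 5-HT arrays 1 to 4, against 10.35, 8.70 and 8.89 in saline arrays 1 to 3. The groups overlapped over nearly their whole range: saline 1 was as bright as the upper 5-HT arrays and 5-HT 2 as dim as the lower saline arrays. The difference of 0.42 (SE 0.46, 95% interval −0.54 to 1.37) was equal to the median of all tested genes and gave an adjusted p of 0.621 by limma. Without saline 1 it was 0.94 (unadjusted p = 0.0312, adjusted p = 0.154 by limma) and without saline 2 it was 0.11. In the fit without saline 1, limma gave every gene the same standard error, and 1490 of the 5428 tested genes had an unadjusted p under 0.05. Csf3r varied more between arrays than most genes: its span of 1.94 was reached by 11.1% of the tested genes, and the span of 1.65 among the saline arrays alone was reached by 6.54%.

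Csf2ra encodes the alpha chain of the GM-CSF receptor, the part that gives the receptor its ligand specificity. It had 9.70, 8.90, 10.04 and 9.53 in the 5-HT arrays, against 9.82, 8.29 and 8.55 in the saline arrays. All 4 5-HT arrays were brighter than saline 2 and 3, and saline 1 was brighter than 3 of the 4 5-HT arrays. The difference, 0.66 (SE 0.42, 95% interval −0.21 to 1.52, limma adjusted p = 0.563), was the largest of the 8 tested members in the deposited values. Without saline 1 it was 1.12 (unadjusted p = 0.00972, adjusted p = 0.113 by limma) and without saline 2 it was 0.36. An unadjusted p under 0.05 was given by limma to 1490 of the 5428 tested genes without saline 1. The Csf2ra difference was 0.21 with quantile normalization, 0.19 with cyclic loess and 0.22 after a shift of every array to the same median of the tested genes, and in the first 2 of these Cish had the larger difference, 0.28 and 0.21.

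Csf2rb encodes the signaling beta chain shared by the GM-CSF, IL-3 and IL-5 receptors. Its signal was 8.75, 7.94, 8.11 and 8.02 in the 5-HT arrays, against 8.85, 8.17 and 7.98 in the saline arrays. Arrays 1 of both groups stood above the others, which lay between 7.94 and 8.17 in both groups. The difference of −0.13 (SE 0.38, 95% interval −0.92 to 0.66, limma adjusted p = 0.833) was the lowest among the tested members, and without saline 1 it was 0.13. Csf2rb lies next to Csf2rb2, its near-identical mouse paralog that serves IL-3 alone. Csf2rb2 had a mean under the limit, with 8.28, 7.05, 7.17 and 7.15 in the 5-HT arrays, against 7.87, 6.91 and 7.01 in the saline arrays. Whether the probes of either gene also bind transcripts of the other could not be checked, since the probe sequences were not used here.

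Jak2 encodes the kinase bound to the tails of these receptors and of the erythropoietin receptor. It had 8.46, 7.18, 7.51 and 7.69 in the 5-HT arrays, against 8.56, 7.01 and 7.16 in the saline arrays. Saline 1 was the brightest array of all, and the other saline arrays were the dimmest. The means were 7.71 ± 0.54 (SD, n = 4) in 5-HT and 7.58 ± 0.85 (SD, n = 3) in saline, a difference of 0.13 (SE 0.43, 95% interval −0.75 to 1.01) with an adjusted p of 0.844 by limma. The span of the saline arrays, 1.55, was far larger than the difference between the groups.

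Stat3 encodes the transcription factor activated by G-CSF and by the IL-6 family. Its signal was 12.03, 10.74, 11.92 and 11.21 in the 5-HT arrays, against 11.38, 11.56 and 11.50 in the saline arrays. The saline arrays lay within 0.18 of each other, a span that 96.4% of the tested genes reached or exceeded, and the 5-HT arrays spread to both sides of them. The means were 11.48 ± 0.61 (SD, n = 4) in 5-HT and 11.48 ± 0.09 (SD, n = 3) in saline, and the difference was −0.005 (SE 0.39, 95% interval −0.81 to 0.80, limma adjusted p = 0.993). Read from the brightest probe of each gene in the deposited values, Stat3 was thus the tested member whose saline arrays were closest together. By the same reading it was the only one in which saline 1 was the dimmest saline array. After the shift to the median of the tested genes, the saline arrays had 11.13, 12.15 and 11.92. The Stat3 difference was then −0.445 (unadjusted p = 0.143, adjusted p = 0.883 by limma). With quantile normalization it was −0.44 (unadjusted p = 0.0917, adjusted p = 0.820 by limma). With cyclic loess it was −0.49 (unadjusted p = 0.0748, adjusted p = 0.924 by limma).

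Stat5a and Stat5b encode 2 closely related transcription factors activated by GM-CSF, IL-3 and erythropoietin, and in the mouse genome Stat5a lies between Stat5b and Stat3 on chromosome 11. Stat5a had 7.83, 7.15, 7.79 and 8.0 in the 5-HT arrays, against 7.87, 7.01 and 7.12 in the saline arrays. Here 5-HT 2 lay with saline 2 and 3, and saline 1 lay with the other 5-HT arrays. The difference was 0.36 (SE 0.38, 95% interval −0.43 to 1.15, limma adjusted p = 0.611). The single Stat5b probe had 6.66, 6.63, 6.68 and 6.53 in the 5-HT arrays, against 6.54, 6.54 and 6.56 in the saline arrays. These values lie at the median of all probes, and the difference without the limit was 0.08 (SE 0.05, limma adjusted p = 0.801). Whether the probes of Stat5a and Stat5b bind each other's transcripts could not be checked either.

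Socs3 and Cish encode inhibitors that STATs switch on and that act back on the receptors: SOCS3 on G-CSF and IL-6 family receptors, CISH on receptors that use STAT5. Their promoters are shown because they were the members with a match to the STAT motif TTCNNNGAA (the GAS motif, which reads the same on both strands). The windows run from 250 bases before to 50 bases after the start of the gene and come from RefSeq (GRCm38.p6); each is written 5′ to 3′ on the gene's strand, with the matches in capitals. The Cish window is chr9:107296409-107296708 on the plus strand and the Socs3 window chr11:117969317-117969616 on the minus strand.
Cish: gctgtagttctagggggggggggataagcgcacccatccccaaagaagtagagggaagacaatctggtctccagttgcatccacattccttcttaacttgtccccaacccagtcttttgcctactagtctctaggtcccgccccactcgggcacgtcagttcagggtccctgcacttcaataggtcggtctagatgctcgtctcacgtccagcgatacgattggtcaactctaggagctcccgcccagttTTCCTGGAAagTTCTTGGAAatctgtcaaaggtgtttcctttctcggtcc
Socs3: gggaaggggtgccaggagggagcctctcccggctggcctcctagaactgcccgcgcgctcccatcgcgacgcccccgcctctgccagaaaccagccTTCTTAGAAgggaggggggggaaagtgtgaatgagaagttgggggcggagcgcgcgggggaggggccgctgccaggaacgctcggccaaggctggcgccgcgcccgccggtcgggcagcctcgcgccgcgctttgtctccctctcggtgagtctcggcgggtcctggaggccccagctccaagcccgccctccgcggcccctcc
Counted from the first base of the gene as 1, the Cish matches TTCCTGGAA and TTCTTGGAA begin at 1 and 12, and the Socs3 match TTCTTAGAA begins at −154. The motif was found in 8.3% of the 32851 windows of the same length and 2 or more times in 0.457%. Among the members, 12 windows of 9 genes were read, and 2 windows held it; none was listed for Csf2rb. A match describes the letters in this window and is not a measured binding site.

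Socs3, whose promoter holds 1 match, had 8.10, 7.40, 8.54 and 7.37 in the 5-HT arrays, against 9.35, 7.10 and 6.87 in the saline arrays. The highest and the lowest of the 7 values were both saline arrays. The span of 2.48 among the saline arrays was reached by 1.07% of the tested genes. The means were 7.85 ± 0.57 (SD, n = 4) in 5-HT and 7.77 ± 1.37 (SD, n = 3) in saline, and the difference was 0.08 (SE 0.49, 95% interval −0.93 to 1.09, limma adjusted p = 0.917). Without saline 1 it was 0.87 (unadjusted p = 0.0457, adjusted p = 0.176 by limma), and without saline 3 it was −0.37. Without saline 1, 1490 of the 5428 tested genes had an unadjusted p under 0.05 by limma.

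Cish, with its 2 matches at the start of the gene, had 8.05, 7.36, 7.63 and 7.75 in the 5-HT arrays, against 7.53, 7.18 and 7.07 in the saline arrays. It was the member whose groups came nearest to separating: only 5-HT 2 lay below saline 1, and saline 2 and 3 lay below every 5-HT array. The means were 7.70 ± 0.29 (SD, n = 4) in 5-HT and 7.26 ± 0.24 (SD, n = 3) in saline. The difference of 0.44 (SE 0.37, 95% interval −0.32 to 1.19) had an adjusted p of 0.572 by limma. In contrast to Socs3 its saline arrays were close together, with a span of 0.46 that 78.6% of the tested genes reached.

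Pim1 encodes a serine/threonine kinase that promotes survival and is a common target of STAT3 and STAT5. It had 6.94, 6.75, 7.08 and 6.97 in the 5-HT arrays, against 7.07, 6.94 and 6.75 in the saline arrays. The groups covered nearly the same range, a little above the median of all probes. The difference without the limit was 0.02 (SE 0.11, 95% interval −0.24 to 0.27, limma adjusted p = 0.973).

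**Figure D2:**
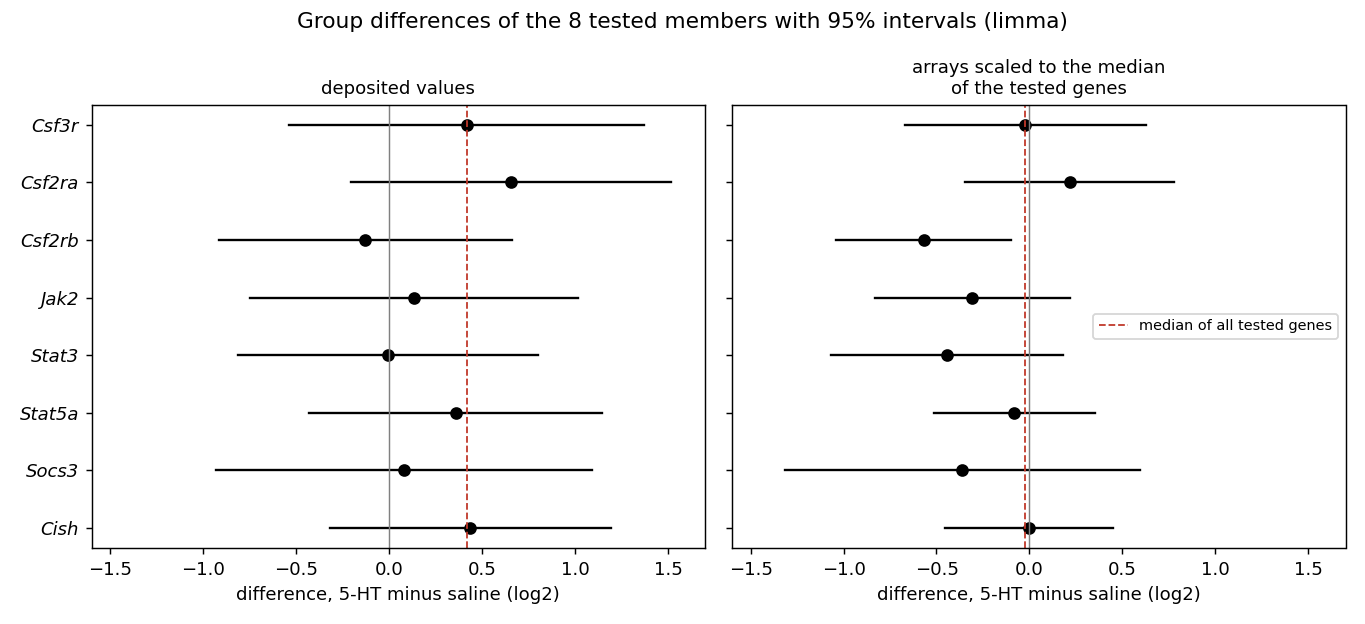
Log2 difference (5-HT minus saline, horizontal axis) of the 8 tested genes with limma's 95% intervals, in the deposited values (left) and with every array shifted to the same median of the tested genes (right); the dashed line is the median difference of all tested genes. Every interval on the left spans 0, and on the right the interval of Csf2rb, −1.04 to −0.10, lies below it.

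The members had 23 probes, and the probes of one gene did not always share the order of the arrays. For Csf3r, the probe ILMN_2806180 followed the brightest probe, ILMN_1255648, from array to array, with 10.18, 8.29, 9.77 and 9.30 in the 5-HT arrays, against 9.98, 8.35 and 8.45 in the saline arrays, a difference of 0.46. A further Csf3r probe, ILMN_1241302, had 8.30, 7.54, 7.51 and 7.63 in the 5-HT arrays, against 7.89, 7.95 and 7.47 in the saline arrays. It was brightest in 5-HT 1 and did not share the high values of 5-HT 3, and its difference was −0.025. For Stat3, ILMN_2589790 tracked the brightest probe across the 5-HT arrays (10.51, 9.12, 10.29 and 9.25, against 10.08, 9.79 and 9.73 in saline; difference −0.07). The Stat3 probe ILMN_3096144, listed for another RefSeq transcript, had 7.93, 6.90, 7.39 and 7.51 in the 5-HT arrays, against 7.77, 6.76 and 6.99 in the saline arrays. In that probe saline 1 stood well above saline 2 and 3, and the difference was 0.26. Saline 1 was the highest saline array in ILMN_2589790 too, whereas in the brightest probe it was the lowest of them. For Jak2, ILMN_3115162, also listed for another transcript, had 7.65, 6.81, 6.84 and 7.27 in the 5-HT arrays, against 7.67, 6.78 and 6.79 in the saline arrays, the same order of high and low arrays as the brightest probe, with a difference of 0.06. The remaining probes of Csf2rb and Jak2 lay between 6.53 and 6.83, near the median of all probes. None of the 23 probes had an adjusted p under 0.05 by limma when all 34885 single-symbol probes were fitted, with values of 0.861 to 0.990 for the probes beside the brightest ones.

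**Figure D3:**
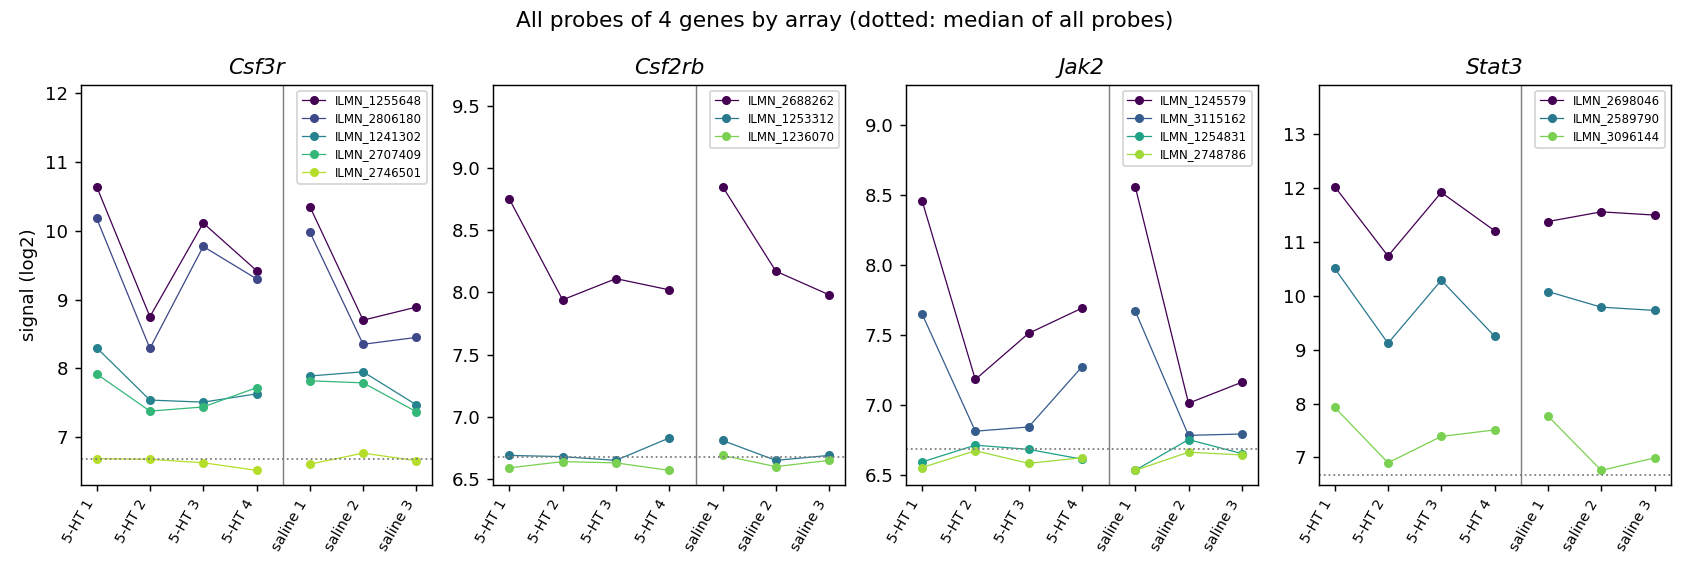
Log2 signal of every probe of Csf3r, Csf2rb, Jak2 and Stat3 in each array, with the median of all probes as a dotted line, 5-HT arrays left of the saline arrays; a line joins the values of 1 probe only for the eye, since arrays have no order. The brighter probes of Csf3r peak in 5-HT 1 and saline 1, whereas the brighter probes of Stat3 differ little among the saline arrays.

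The rest of the pathway was read from 6 lists of 92 genes in all, of which 85 were on the array and 34 reached the limit. By limma, 0 of the 34 had an adjusted p under 0.05, against 0% of all tested genes, and 0 had groups that did not overlap, against 6.41%. Of these, 1 gene (2.94%) had an unadjusted p under 0.05 with a fold change above 1.5 in the higher direction, against 5.71% of all tested genes, and 0 did so in the lower direction, against 0.0184%. The difference was above 0 for 27 of the 34, with a median of 0.39. The lists were chosen with earlier results of these data known, so the counts describe them only.

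The gene in question was Ccnd3, which encodes cyclin D3, a driver of the G1 phase and a STAT5 target. Its signal was 13.27, 12.26, 13.38 and 13.10 in the 5-HT arrays, against 12.34, 11.64 and 12.04 in the saline arrays. Only 5-HT 2 lay below the brightest saline array. The difference was 1.0 (SE 0.39), with an unadjusted p of 0.0168 and an adjusted p of 0.563 by limma. It was 0.34 with the mean of its probes (unadjusted p = 0.161 by limma), and 0.53 to 0.61 with quantile, cyclic loess or the shift to the median of the tested genes. In the list of other target genes, 15 of 20 genes reached the limit, with a median difference of 0.35.

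Of the ligand genes, 1 of 13 on the array reached the limit: Osm, which encodes oncostatin M, an IL-6 family cytokine made by myeloid cells and itself a STAT5 target. Osm had 10.43, 9.33, 10.87 and 8.64 in the 5-HT arrays, against 10.71, 8.13 and 7.96 in the saline arrays. As for Socs3, saline 1 stood far above saline 2 and 3. The difference was 0.88 (SE 0.56, limma adjusted p = 0.563), and without saline 1 it was 1.77 with an adjusted p of 0.0134 by limma. Osm was the one gene of the lists called in that fit, against 77 of all 5428 tested genes. There limma gave every gene the same standard error, so that p does not reflect the spread of Osm itself. The Osm difference was 0.48 without saline 2, 0.40 without saline 3 and 0.53 without 5-HT 3, and 0.41 to 0.44 with quantile, cyclic loess or the shift to the median of the tested genes. With the mean of its probes it was 0.49 (unadjusted p = 0.285 by limma). Csf3, which encodes G-CSF itself, was looked at after its values had been seen. It had 6.92, 6.85, 6.96 and 6.84 in the 5-HT arrays, against 6.62, 6.71 and 6.60 in the saline arrays, all close to the median of all probes. The groups did not overlap, as in 3.43% of all 19057 genes in this direction, and the difference without the limit was 0.25 (SE 0.05, unadjusted p = 0.00298, adjusted p = 0.801 by limma).

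Among the other receptors, 7 of the 25 on the array reached the limit (median difference 0.29). The gene with the largest difference was Il3ra, the ligand-specific chain that pairs with the product of Csf2rb to bind IL-3. It had 8.74, 7.65, 8.86 and 8.29 in the 5-HT arrays, against 8.08, 7.45 and 7.51 in the saline arrays. The groups overlapped only through 5-HT 2 and saline 1, and the difference was 0.71 (SE 0.39, limma adjusted p = 0.563). Il10ra, the ligand-binding chain of the IL-10 receptor, followed with 0.47 (SE 0.44, limma adjusted p = 0.590).

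Of the other JAK and STAT genes, 5 of 6 on the array reached the limit, with a median difference of 0.49. Stat4, the transcription factor of IL-12 signaling, had 9.12, 7.95, 9.0 and 9.02 in the 5-HT arrays, against 8.72, 7.69 and 7.76 in the saline arrays. 5-HT 1, 3 and 4 lay close together and above every saline array, and 5-HT 2 fell among the saline values. The difference was 0.72 (SE 0.40, limma adjusted p = 0.563). Tyk2, the JAK of interferon and IL-12 receptors, differed by 0.54 (SE 0.44, limma adjusted p = 0.566). With the mean of its probes the Tyk2 difference was 0.23 (unadjusted p = 0.402 by limma).

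None of the 6 other SOCS genes on the array reached the limit, with means of 6.62 to 7.43 in the 5-HT arrays and 6.68 to 7.28 in the saline arrays. Of the other inhibitors and adaptors, 7 of 17 did (median difference 0.51). Ptpn6, which encodes the phosphatase SHP-1 that switches off receptors and JAKs, had 11.80, 10.47, 12.20 and 11.06 in the 5-HT arrays, against 11.36, 10.30 and 10.09 in the saline arrays. Ptpn11, which encodes SHP-2, a phosphatase that in many receptors passes the signal on, had 12.06, 9.61, 11.02 and 11.73 in the 5-HT arrays, against 11.91, 9.65 and 9.90 in the saline arrays. Saline 1 was brighter than 5-HT 2 and 4 for Ptpn6, and brighter than 5-HT 2, 3 and 4 for Ptpn11. The differences were 0.80 (SE 0.44, limma adjusted p = 0.563) for Ptpn6 and 0.62 (SE 0.54, limma adjusted p = 0.575) for Ptpn11.

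The pattern that recurred in the members, saline 1 high and 5-HT 2 low, was shared only in part by the arrays as a whole. The median over the tested members was 8.60, 7.67, 8.32 and 8.01 in the 5-HT arrays, against 9.10, 7.68 and 7.57 in the saline arrays. The median over all tested genes was 9.43, 8.28, 8.96 and 9.03 in the 5-HT arrays, against 8.99, 8.15 and 8.32 in the saline arrays. In both, 5-HT 2 and saline 2 and 3 were the 3 lowest arrays. The highest array differed, being 5-HT 1 for all tested genes and saline 1 for the members. For all tested genes, saline 1 lay below 5-HT 1 and 5-HT 4. In the deposited values, saline 1 was the highest array for Csf2rb, Jak2 and Socs3, whereas for Csf3r it was 5-HT 1. After the shift to the median of the tested genes, saline 1 was highest for Csf3r (10.10), Jak2 (8.31) and Socs3 (9.10). It was not the highest array for Csf2ra, Csf2rb, Stat3, Stat5a or Cish. The monocyte and macrophage markers had a mean of 9.07, 7.31, 8.40 and 8.14 in the 5-HT arrays, against 9.20, 7.52 and 7.46 in the saline arrays, and the megakaryocyte and platelet markers one of 11.03, 8.77, 9.93 and 11.05 in the 5-HT arrays, against 10.95, 8.90 and 8.76 in the saline arrays. The part of these lists, and of the neutrophil and eosinophil lists, in the values of the members was not tested.

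**Figure D4:**
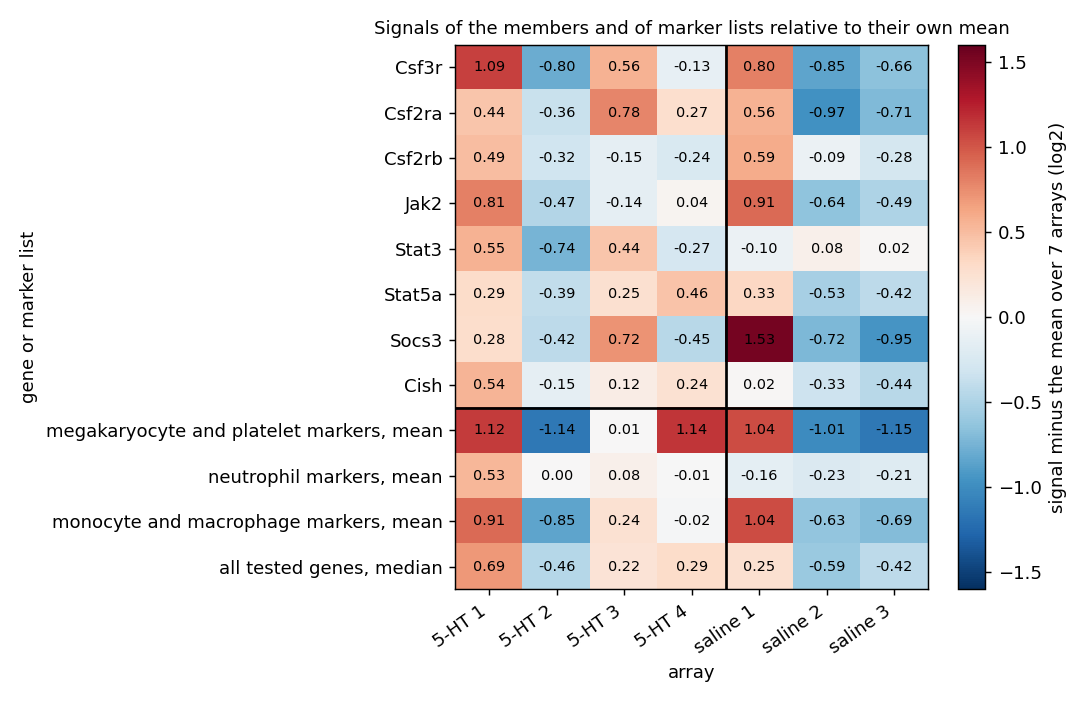
Log2 signal of each tested member, mean of 3 marker lists and median of all tested genes (rows) in each array (columns, 5-HT left and saline right), minus the mean of that row over the 7 arrays; red is above and blue below that mean. 5-HT 2 is below the mean in all 8 genes, saline 1 is above it in all but Stat3, and Socs3 in saline 1 is the highest cell at 1.53.

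Since most tested genes were brighter in 5-HT, each member was also read relative to the other genes of its array. When every array was shifted to the same median of the tested genes, the median difference of all tested genes was −0.02 and that of the members −0.19. Csf2rb then had 8.06, 8.396, 7.89 and 7.73 in the 5-HT arrays, against 8.60, 8.76 and 8.401 in the saline arrays. Every 5-HT array was below every saline array, 5-HT 2 and saline 3 being almost equal, and 2.82% of the tested genes were lower without overlap in these values (3.15% were higher). The difference was −0.57 (95% interval −1.04 to −0.10), with an unadjusted p of 0.0227 and an adjusted p of 0.883 by limma, and 3.1% of the tested genes were lower with an unadjusted p under 0.05. With quantile normalization the Csf2rb difference was −0.46 (unadjusted p = 0.0397, adjusted p = 0.820 by limma), and 2.36% of the tested genes were lower with an unadjusted p under 0.05. The groups overlapped there, while 1.6% of the tested genes were lower without overlap. With cyclic loess it was −0.50 (unadjusted p = 0.0302, adjusted p = 0.924 by limma) without overlap, as in 2.36% of the tested genes, and 2.84% were lower with an unadjusted p under 0.05. No member passed the adjusted threshold under any of these scalings. Cish went the other way with quantile normalization, with 7.60, 7.69, 7.61 and 7.58 in the 5-HT arrays, against 7.33, 7.45 and 7.24 in the saline arrays. These groups did not overlap, as in 4.77% of the tested genes in that direction, and the difference was 0.28 with an unadjusted p of 0.108 by limma. The Cish groups did not overlap with cyclic loess either, as in 2.98% of the tested genes. With the shift to the median of the tested genes, the difference of Cish was −0.0025 and its groups overlapped.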

How the data were processed

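Total RNA of 4 pools of CD41-selected marrow cells from 5-HT-infused mice and of 3 pools from saline-infused mice was hybridized to Illumina mouse BeadChips. The authors exported signals from Genome Studio, log transformed them and shifted each array to a common median, and removed 1 control sample as an outlier. These deposited log2 values were used unchanged, and whether background had been subtracted is not given in the sources used here. The study names both the WG-6 and the MouseRef-8 BeadChip, and the table has 45281 probes. The 14 columns of signals before normalization and detection p-values match no sample by name and were not used.

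Of the probes, 34885 had 1 gene symbol, 18 had several and 10378 had none; the gene identifiers of 34807 were found in the RefSeq gene table (assembly GRCm38.p6), and 0 symbols were updated. The probe with the highest mean over 7 arrays stood for each of the 19057 genes, and the 5428 genes with a mean of at least 7.5 were tested. Groups were compared with limma 3.58.1 (lmFit, then eBayes; R 4.3.3) on the group alone (5 residual and 18.9 prior degrees of freedom), with Benjamini-Hochberg adjustment over the tested genes. A gene is called where the adjusted p is below 0.05. The methods' own threshold (unadjusted p under 0.05 and more than 1.5-fold) was counted too. Members under the limit were fitted over all 19057 genes. Standard errors and intervals are limma's moderated ones and borrow strength from the other genes. The number of arrays limits the precision. The procedure was tested on simulated data.

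All 10 members are named, and in each pathway list the 2 tested genes with the largest difference, since none passed; other genes named were chosen after their values were seen. The members, the lists and the motif were chosen with earlier results of these data known. Listed genes without a single-symbol probe were not analysed here. Correlations between members over the arrays are not given, because the arrays fell into 2 clusters. The comparison was repeated after a shift of each array to the tested genes' median, after quantile, cyclic loess or normexp (offset 16) processing, with a limit of 7 or none, with single or averaged probes, with a trended robust eBayes, with array weights, with the replicate number as a block, and without single arrays or a pair of them.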

Additional observations from a re-analysis of the deposited data

Results flagged for a closer look

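In 31 groups of 4 5-HT arrays, 1 array lay far from the other 3 in 2 cases, and chance alone marks about 1 group in 20. The first was Stat4, where 5-HT 2 had 7.95 and the other 5-HT arrays 9.0 to 9.12, so that the gap took 0.897 of the whole range, more than Dixon's critical value allows. The second was the Csf3r probe ILMN_1241302, where 5-HT 1 had 8.30 and the other 5-HT arrays 7.51 to 7.63, a gap of 0.848 of the range.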

How the results depend on the processing

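By limma, 0 members were called at an adjusted p under 0.05 in the deposited values, under every normalization, limit and probe rule, with trend and robust, with the replicate block and when any single array was left out. The exceptions were array weights (3 members: Csf3r, Csf2ra and Stat5a) and the fit without saline 1 and 5-HT 2 (4: those and Socs3). The weights were estimated under the group labels and were lowest for these arrays (0.329 and 0.308), and the pair was left out because each lies nearer the other group, so both settings favor a difference and nothing is read from the rise. Likewise, 0 members passed the fold change of 1.5 with an unadjusted p under 0.05, against 3 with array weights, 1 (Csf2ra) with the replicate block, 6 with both arrays left out, and 0 to 3 with 1 array left out (3 without saline 1: Csf3r, Csf2ra and Socs3; 1 without 5-HT 2). Of the pathway lists 0 genes were called, but 19 with array weights, 20 with both arrays left out, and 0 to 1 with 1 array left out (Osm, without saline 1). Over all tested genes 0 were called, but 3 with trend and robust, 3281 with array weights, 45 with the replicate block, 3071 with both arrays left out, and 0 to 77 with 1 array left out (77 without saline 1, and 1 each without saline 3 or 5-HT 3). Genes past the fold change of 1.5 with an unadjusted p under 0.05 numbered 311 in the deposited values, 157 with quantile, 144 with cyclic loess, 181 with the shift to the median of the tested genes, 201 with normexp, 483 with the limit of 7, 3345 with array weights, 1241 with the replicate block, 3543 with both arrays left out, and 55 to 1690 with 1 array left out (1490 without saline 1 and 1690 without 5-HT 2). They divided into 310 higher and 1 lower in the deposited values, 65 and 92 with quantile, 41 and 103 with cyclic loess, 52 and 129 with the shift, and 188 and 13 with normexp. In fits without a saline array, limma gave every gene the same standard error.

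The members' median difference was 0.25, −0.03 with quantile, −0.10 with cyclic loess and −0.19 with the shift, and 0.06 to 0.63 with 1 array left out, highest without saline 1. Of 189 alternatives for the 10 member differences, 41 changed the sign, all of differences short of the threshold. Quantile gave −0.059 for Csf3r, −0.017 for Jak2, −0.046 for Socs3 and −0.023 for Pim1. Cyclic loess gave −0.065 for Csf3r, −0.13 for Jak2, −0.22 for Socs3 and −0.049 for Pim1. The shift to the median of the tested genes gave −0.023 for Csf3r, −0.31 for Jak2, −0.081 for Stat5a, −0.36 for Stat5b, −0.36 for Socs3, −0.0025 for Cish and −0.425 for Pim1. Normexp gave −0.0087 for Pim1. The mean of the probes gave 0.06 for Stat3 and −0.020 for Pim1. Single probes gave −0.025, −0.045 and −0.05 for Csf3r, −0.005 for Jak2, 0.26 for Stat3 and −0.056 for Pim1. Both arrays left out gave 0.22 for Csf2rb and 0.19 for Stat3. With 1 array left out, the differences ranged from −0.31 to 0.13 for Csf2rb, −0.15 to 0.625 for Jak2, −0.19 to 0.24 for Stat3, 0.11 to 0.94 for Csf3r, 0.36 to 1.12 for Csf2ra, 0.20 to 0.63 for Stat5a, 0.32 to 0.57 for Cish, −0.37 to 0.87 for Socs3 and −0.07 to 0.09 for Pim1. The other pathway genes kept their sign but were smaller with quantile, cyclic loess and the shift: 0.10 to 0.18 for Ptpn11, 0.30 to 0.36 for Ptpn6, 0.28 to 0.37 for Stat4 (0.17 with the mean of its probes), 0.09 to 0.11 for Tyk2, 0.03 to 0.18 for Il10ra and 0.265 to 0.41 for Il3ra. With 1 array left out, Ptpn11 ranged from 0.20 to 1.33, Ptpn6 from 0.53 to 1.19, Stat4 from 0.53 to 1.05, Tyk2 from 0.22 to 0.97, Il10ra from 0.19 to 1.02 and Il3ra from 0.55 to 0.95. The cause was not tested, beyond the construction of the shift, which lowers the median difference of all tested genes, 0.42 in the deposited values, to −0.02.

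The replicate numbers did not clearly pair the arrays: deviations of arrays with the same number correlated at 0.145, 0.684 and −0.247. For 5-HT 1 and 5-HT 2, these were the highest values with any saline array. However, 5-HT 3 correlated highest with saline 1 (0.236), and 5-HT 2 also correlated with saline 3 (0.581). With the number as a replicate block, which drops 5-HT replicate 4 from the comparison, Stat3 differed by 0.083 and Csf2ra by 0.66 (unadjusted p = 0.0363, adjusted p = 0.194 by limma).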
